A study of Homo sapiens with 6 samples.

Results

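A group of 65 genes lay below 1 FPKM in every control library of HOS cells and at or above 1 FPKM in every library of cells treated with Agrimol B. FPKM is a gene's sequenced fragments scaled by transcript length and library size, and 1 FPKM is a customary mark between genes that are barely detected and genes that are expressed. Members were all rows of the deposited table of 16376 genes that met these 2 conditions and whose mean over the Agrimol B libraries was at least 3 times the control mean. Symbols with a hyphen (0 met the thresholds) were left out, as were IL6 and CXCL2, which did. The members were thus chosen by their measured FPKM in the contrast between Agrimol B and control. The members' levels are therefore a description of how they were chosen, and no test of that contrast is given for them.

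HOS is an established human osteosarcoma (bone tumour) cell line, labelled as wild type in all libraries, and Agrimol B is a plant phloroglucinol named after Agrimonia. The study compared 3 libraries of cells given Agrimol B for 24 h with 3 libraries of control cells, whose treatment is labelled as none. The labels give neither the dose of Agrimol B nor a solvent for the control cells. No label says that libraries of 1 group came from separate cultures, so the spread between them may be only technical.

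Genes with little mRNA in a cell line are often genes of other lineages, or genes such as cytokines and early response factors whose promoters stay quiet until a signal reaches them. A stressed or stimulated cell can transcribe such genes within hours, since many of them answer to factors like NF-kB, AP-1 and ATF4 that are already present or quickly made. In a bulk sample an FPKM of a few units can come from many cells with little of a transcript or from few cells with much, and these cannot be told apart.

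The labelled cell type was checked against marker genes. All 12 osteoblast and mesenchymal markers searched, among them COL1A1, SPARC and RUNX2, were at 1 FPKM or more in every library, with a summed level of 1612 to 1715 FPKM in control and 1072 to 1128 FPKM in Agrimol B libraries. In the test of single genes given below, 10 of the 12 were lower with Agrimol B and 0 higher, against 21.4% lower of all genes tested. The libraries had similar totals (352990 to 359537 FPKM) and similar numbers of genes at 1 FPKM or more (11993 to 12134). The number of reads is unknown, so the counting error of a single low value cannot be given.

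The third Agrimol B library stood apart in its keratinocyte genes, and the third control library showed a weaker trace of some of them. Over the 31 cornified envelope and keratin genes searched that are not members, 25 were under 1 FPKM in every control library. Their summed level was 3.60 and 4.18 FPKM in the first and second Agrimol B libraries and 33.4 FPKM in the third. In the control libraries it was 2.25, 2.11 and 4.26 FPKM. Of these 25 genes, 13 were highest in the third library among the Agrimol B libraries and 11 in the third among the control libraries. KRT14 was at 0, 0 and 0.745 FPKM in control and 0.0256, 0 and 5.87 FPKM in Agrimol B libraries. KRT5, a keratin of basal keratinocytes, was at 0.206, 0.699 and 10.4 FPKM in the 3 Agrimol B libraries, and SPRR1B at 0, 0 and 2.86 FPKM. The calprotectin genes S100A8 (0, 0.0966 and 4.08 FPKM) and S100A9 (0, 0.123 and 5.35 FPKM), chosen after their values were seen, showed the same pattern. Among the Agrimol B libraries, the third held the highest value of 31 members, the first of 16 and the second of 18. Of the 65 members, CXCL3 and DLK2 were more than 1.5 times as high in that library as in either of the other Agrimol B libraries. Without it, 63 members still met the rule, and the exceptions were DLK2 and UNC5D.

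Of 4116 genes under 1 FPKM in all 3 control libraries, or 25.1% of the table, 3726 stayed under 1 FPKM in all 3 Agrimol B libraries and 219 reached it in 1 or 2 of them. The remaining 171 reached it in all 3, and 104 of these had a ratio of means under 3. The members made up 1.58% of these low genes. Every Agrimol B library lay above every control library for 18.8% of these low genes and 30.8% of all genes, as it did by the rule for all 65 members. Their median ratio was 4.48, against 1.02 for the other low genes with a control mean above 0. The rule itself kept the members' ratios at 3 or more. The ratio lay between 3 and 5 for 37 members, between 5 and 10 for 21 and at 10 or more for 7.

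**Figure D1:**
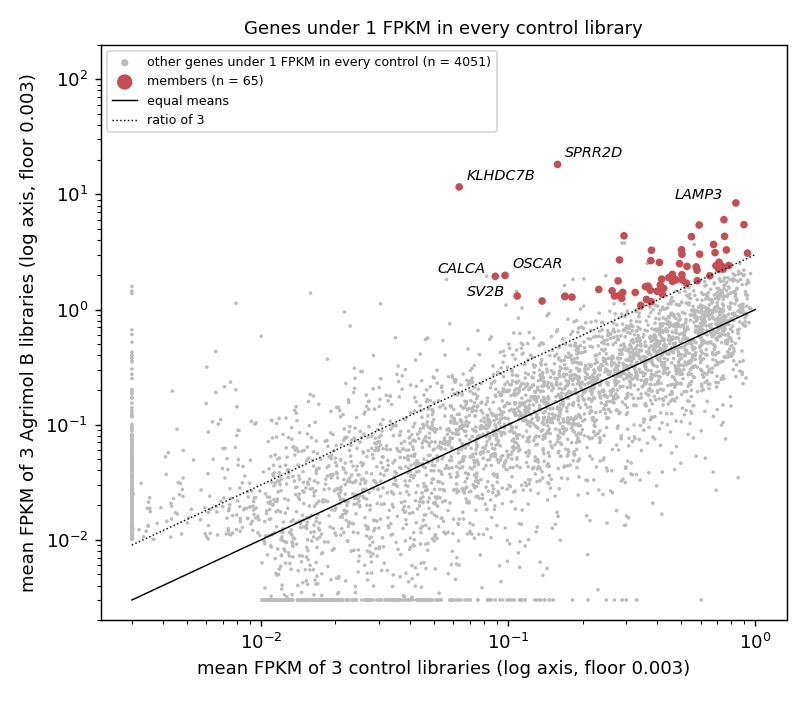
Mean FPKM of the 3 control libraries (x axis) and of the 3 Agrimol B libraries (y axis), both on log axes with values under 0.003 drawn at 0.003, for the 4116 genes under 1 FPKM in every control library. Each point is a gene, and the 65 members (red) lie above the dotted line of ratio 3, with KLHDC7B and SPRR2D far above the rest.

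Most members remained weakly expressed with Agrimol B. Their median level was 1.98 FPKM with Agrimol B and 0.426 FPKM in control, while the median gene of the table stood at 6.35 FPKM with Agrimol B. Only 3 members (SPRR2D, KLHDC7B and LAMP3) exceeded that median. At or above 5 FPKM were 6 members, 26 lay between 2 and 5 FPKM, and 33 lay under 2 FPKM. The summed level of all members was 28.9, 31.6 and 28.4 FPKM in the control libraries and 173, 180.1 and 187 FPKM in the Agrimol B libraries, or 0.0490% to 0.0528% of the total in the latter. SPRR2D and KLHDC7B alone made up 19.7% of the summed difference. The spread between the 3 Agrimol B libraries was small for most members, with a median coefficient of variation of 10.7% (0.697% for DGKK to 35.1% for IL20RB).

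**Figure D2:**
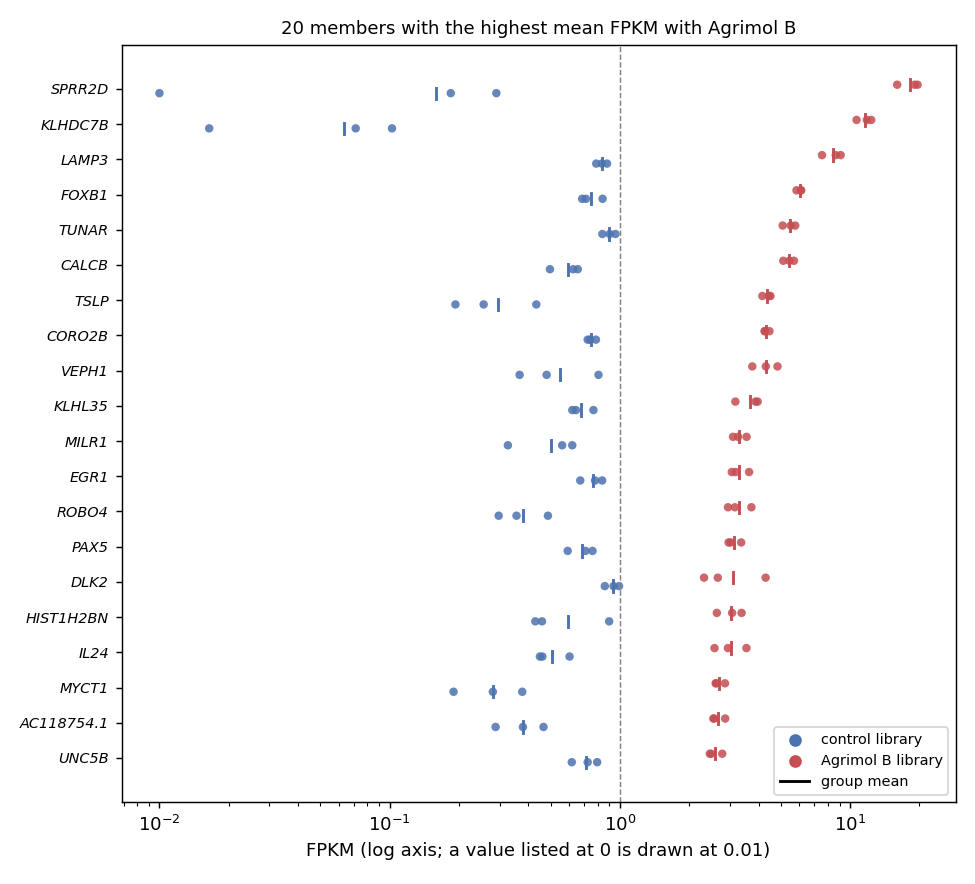
FPKM (log axis) in each of the 3 control (blue) and 3 Agrimol B (red) libraries for the 20 members with the highest Agrimol B mean, with the group means as bars and the limit of 1 FPKM as a dashed line. A value listed at 0 (SPRR2D in 1 control library) is drawn at 0.01, and the gap between the groups is widest for KLHDC7B and SPRR2D.

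Since all members were selected to lie on different sides of 1 FPKM in the groups, the sequence before their start sites was searched for short motifs of stress and signal factors. RefSeq promoter windows (250 bases before to 50 after the start, GRCh38.p14, the same chromosomes as the hg38 build of the study) were matched for 48 of the 65 members. The 17 without one were LAMP3, UNC5B, LIF, OASL, UNC5D, KIF26B, SPRR2D, TMEM71, C16orf71, OSCAR, CALCB, THBD, AC118754.1, ZNF165, HIST1H2BN, CCDC188 and MILR1. The 6 windows shown belong to the members with the highest Agrimol B level that hold a motif of a stress or signal factor, which is written in capitals. They are KLHDC7B (chr22:50545649-50545948, plus strand), VEPH1 (chr3:157503367-157503666, minus strand), IL24 (chr1:206897193-206897492, plus strand), MYCT1 (chr6:152697696-152697995, plus strand), AREG (chr4:74444886-74445185, plus strand) and RELN (chr7:103989609-103989908, minus strand), each printed 5′ to 3′ on the strand of its gene.
KLHDC7B: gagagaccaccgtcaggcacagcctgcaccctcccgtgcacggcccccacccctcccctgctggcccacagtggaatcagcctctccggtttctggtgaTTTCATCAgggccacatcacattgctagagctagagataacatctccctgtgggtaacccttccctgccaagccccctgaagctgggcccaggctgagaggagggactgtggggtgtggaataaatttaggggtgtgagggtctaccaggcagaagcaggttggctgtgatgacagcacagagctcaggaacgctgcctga
VEPH1: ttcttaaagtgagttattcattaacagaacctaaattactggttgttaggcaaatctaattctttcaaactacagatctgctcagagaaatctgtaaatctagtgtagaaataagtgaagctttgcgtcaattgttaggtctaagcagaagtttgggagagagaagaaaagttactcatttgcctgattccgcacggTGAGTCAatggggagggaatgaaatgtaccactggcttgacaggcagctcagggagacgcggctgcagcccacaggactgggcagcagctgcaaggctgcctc
IL24: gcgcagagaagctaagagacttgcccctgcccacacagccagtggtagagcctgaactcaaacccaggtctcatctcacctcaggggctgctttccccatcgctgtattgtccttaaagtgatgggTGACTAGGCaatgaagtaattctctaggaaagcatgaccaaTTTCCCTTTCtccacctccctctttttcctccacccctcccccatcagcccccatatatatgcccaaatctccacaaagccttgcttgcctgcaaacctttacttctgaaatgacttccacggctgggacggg
MYCT1: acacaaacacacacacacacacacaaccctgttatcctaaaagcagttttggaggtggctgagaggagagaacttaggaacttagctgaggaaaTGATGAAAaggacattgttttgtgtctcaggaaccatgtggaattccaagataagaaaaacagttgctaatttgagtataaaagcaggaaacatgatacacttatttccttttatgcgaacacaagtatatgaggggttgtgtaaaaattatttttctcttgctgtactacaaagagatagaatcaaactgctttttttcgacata
AREG: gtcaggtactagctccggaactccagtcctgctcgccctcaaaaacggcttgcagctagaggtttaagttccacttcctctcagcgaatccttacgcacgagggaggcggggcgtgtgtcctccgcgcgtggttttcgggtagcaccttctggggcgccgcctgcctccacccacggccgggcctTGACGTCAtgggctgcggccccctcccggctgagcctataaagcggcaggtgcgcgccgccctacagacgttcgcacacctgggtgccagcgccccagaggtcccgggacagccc
RELN: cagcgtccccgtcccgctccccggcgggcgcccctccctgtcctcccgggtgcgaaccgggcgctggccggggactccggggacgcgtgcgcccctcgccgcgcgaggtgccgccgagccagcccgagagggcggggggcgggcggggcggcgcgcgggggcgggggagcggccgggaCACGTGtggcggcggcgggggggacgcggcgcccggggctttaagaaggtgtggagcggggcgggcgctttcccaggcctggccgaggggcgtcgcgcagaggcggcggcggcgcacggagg

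In KLHDC7B and MYCT1 the capitals mark TGATGNAA, the core of the C/EBP-ATF response element bound by ATF4, on the opposite strand at position -151 and on the gene's strand at position -156 from the start. The VEPH1 window holds the AP-1 site TGANTCA at -53. This window lies inside the annotated span of VEPH1 (157259742 to 157533619), so it belongs to a start within the gene and not to the outermost one. The AREG window holds the full cAMP response element TGACGTCA at -65, with a TATA box, in lower case, at -29. In IL24 they mark the antioxidant core TGACNNNGC at -124 and the interferon response core (GAAA, any 2 bases, GAAA; opposite strand) at -83, and in RELN the E-box CACGTG at -72. A match is a string of letters and not a shown binding site.

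Both strands of the 48 windows were searched for 12 motifs, and most were rare. The ATF4-type core TGATGNAA was in 4 of 48 members (8.33%; KLHDC7B, MYCT1, CALCA and IL20RB), in 3.45% of 2753 low genes and in 1.93% of all 12459 genes of the table with a window. A form of the NF-kB site (GGG, any 2 bases, TTTCC) was in 3 (6.25%; SOX21, F2RL3 and CXCL3), against 2.07% of low genes and 2.09% of all. The AP-1 site was in 1 member (2.08%) and in 7.74% of low genes, and TGACNNNGC in 3 (6.25%) and in 13.3% of low genes. CACGTG was in 3 members (6.25%; 6.72% of low genes), and the cAMP and interferon elements in 1 each (2.08%; 1.42% and 3.92% of low genes). The TATA box TATAAA was in 8 members (16.7%), 13.6% of low genes and 6.93% of all, and CCAAT in 15 (31.2%), 34.4% and 36.0%. The heat shock core (GAA, TTC and GAA, each any 2 bases apart), the EGR site GCGTGGGCG and TTCAGCACC, one arm of the element bound by the neuronal repressor REST, were in 0 members and in 0.400%, 0.799% and 0.690% of low genes. Some of these strings contain or overlap one another, and no test was made. The member windows had a median of 14.5 CpG dinucleotides, the low genes 11 and all genes 25, so the members' promoters were closer in this to other low genes than to the table.

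Secreted signals formed a group of 8 members, with a median ratio of 6.13. TSLP (chromosome 5, 111070062 to 111078024, plus strand), an epithelial cytokine that instructs dendritic cells and type 2 immune responses, was at 0.256, 0.433 and 0.193 FPKM in control and 4.51, 4.16 and 4.44 FPKM in Agrimol B libraries. The 3 Agrimol B values were nearly equal, and the ratio of means was 14.8. IL24, a cytokine of the IL10 family, was at 0.605, 0.449 and 0.460 FPKM in control and 2.95, 3.55 and 2.58 FPKM with Agrimol B. CALCB and CALCA overlap in their annotated spans on chromosome 11 and encode the calcitonin gene-related peptides, which widen blood vessels and are known from sensory neurons (CALCA also encodes calcitonin). CALCB was at 0.497, 0.626 and 0.656 FPKM in control and 5.70, 5.12 and 5.45 FPKM with Agrimol B. CALCA was at 0.133, 0.0459 and 0.0875 FPKM in control and 1.53, 2.01 and 2.29 FPKM with Agrimol B. CALCA thus reached a lower level from a lower start, and its ratio of 21.9 was the third largest of all members, while that of CALCB was 9.15.

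The other secreted signals were the EGF receptor ligands AREG and TGFA, the cytokine LIF and the chemokine CXCL3, which attracts neutrophils. AREG was at 0.409 ± 0.115 FPKM (SD, n = 3 libraries, as for all such values) in control and 2.57 ± 0.567 FPKM with Agrimol B. TGFA stood at 0.288 ± 0.107 and 1.25 ± 0.0546 FPKM, and LIF at 0.327 ± 0.0390 and 1.41 ± 0.134 FPKM. CXCL3 was at 1.23, 1.19 and 1.90 FPKM in the Agrimol B libraries, highest in the third, and at 0.249 to 0.527 FPKM in control. Whether the keratinocyte genes in that library bear on CXCL3 was not tested.

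Extracellular and surface-anchored proteins gave 5 members, with ratios of 3.32 to 5.07. HAPLN2, a link protein of hyaluronan matrices in brain, had a control mean of 0.494 ± 0.181 FPKM and 2.502 ± 0.462 FPKM with Agrimol B. RELN, which encodes the neuronal guidance protein reelin, stood at 0.693 ± 0.0861 and 2.40 ± 0.235 FPKM. ESM1, the endothelial proteoglycan endocan, was at 0.447 ± 0.0908 and 1.89 ± 0.304 FPKM, and NTNG1, a membrane-anchored netrin, at 0.462 ± 0.205 and 1.76 ± 0.0358 FPKM. DLK2, an EGF-repeat protein of the Notch ligand type, had the control values closest to the limit (0.860, 0.938 and 0.991 FPKM) and Agrimol B values of 2.66, 2.32 and 4.29 FPKM. It no longer met the rule without the third Agrimol B library, nor under median-ratio scaling or quantile normalization.

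Receptors and channels gave 13 members, with a median ratio of 3.80. OSCAR, a collagen receptor of osteoclasts and myeloid cells, was at 0.0407, 0.149 and 0.101 FPKM in control and 1.38, 2.36 and 2.19 FPKM with Agrimol B, a ratio of 20.4. MILR1, an inhibitory receptor of mast cells, was at 0.561, 0.621 and 0.326 FPKM in control and 3.10, 3.26 and 3.55 FPKM with Agrimol B. Of its control values the third was the lowest, the Agrimol B values were close, and the ratio was 6.57. ROBO4, an endothelial receptor of the roundabout family, was at 0.356, 0.487 and 0.297 FPKM in control and 2.95, 3.16 and 3.72 FPKM with Agrimol B. UNC5B, a netrin receptor, was at 0.618, 0.724 and 0.797 FPKM in control and 2.49, 2.46 and 2.78 FPKM with Agrimol B. The neighbouring gene of ROBO4 on chromosome 11, ROBO3, which guides axons, was also higher with Agrimol B (19.7 ± 2.14 against 10.4 ± 0.671 FPKM).

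The other receptors stood between 1.36 and 2.37 FPKM with Agrimol B. They were UNC5D of the same netrin receptor family, the endothelial receptor kinase TIE1, thrombomodulin (THBD), the thrombin receptor F2RL3, the serotonin receptor HTR7, the cytokine receptor subunit IL20RB, the phosphatase PTPRO, the acetylcholine receptor subunit CHRNA9 and the sodium channel SCN9A. THBD, which turns thrombin into an anticoagulant enzyme, was at 0.418 ± 0.0626 FPKM in control and 1.84 ± 0.258 FPKM with Agrimol B, and F2RL3 at 0.368 ± 0.0478 and 1.59 ± 0.167 FPKM. SCN9A, the channel of pain-sensing neurons, stood at 0.529 ± 0.220 and 2.37 ± 0.514 FPKM. IL20RB had the widest relative spread of all members, with Agrimol B values of 1.26, 1.67 and 2.51 FPKM, highest in the third library. UNC5D and PTPRO lay at the limit of the rule, with ratios of 3.00 and 3.06.

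ROBO4, TIE1, ESM1, THBD and MYCT1 are known from endothelial cells, so the endothelial markers were read beside them. Of the 7 markers in the table, 5 (PECAM1, CDH5, VWF, KDR and CLDN5) were under 1 FPKM in every library. Their summed level, mostly TEK and ERG, was 6.52 to 6.59 FPKM in control and 2.35 to 2.78 FPKM in Agrimol B libraries. The sum was thus lower with Agrimol B, through the only 2 of the 7 markers that were high enough to be tested. Blood cell markers had 4 of 7 under 1 FPKM in every library, PTPRC among them, with summed levels of 7.72 to 7.87 FPKM in control and 9.41 to 12.5 FPKM with Agrimol B. Of the 3 tested, 1 was higher (CD68, 4.22 and 9.002 FPKM on average) and 2 lower (CD14 and CORO1A). In the neuronal list 5 of 8 were under 1 FPKM throughout (12.1 to 27.7 FPKM summed with Agrimol B, 22.7 to 46.7 FPKM in control), and in the melanocyte list 2 of 3 (1.92 to 2.28 against 1.96 to 2.07 FPKM). Epithelial markers, with 2 of 9 under 1 FPKM throughout, summed to 296 to 327 FPKM with Agrimol B and 531 to 593 FPKM in control, almost all from KRT8 and KRT18.

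Nuclear proteins gave 12 members, most of them developmental transcription factors. FOXB1, a forkhead factor of the embryonic brain, was at 0.712, 0.685 and 0.841 FPKM in control and 6.12, 5.85 and 6.12 FPKM with Agrimol B, the highest level of the group and a ratio of 8.08. PAX5, the factor that commits cells to the B lineage, was at 0.708, 0.760 and 0.593 FPKM in control and 2.96, 3.36 and 3.03 FPKM with Agrimol B. EGR1, an early response factor, was at 0.780, 0.673 and 0.837 FPKM in control and 3.18, 3.64 and 3.06 FPKM with Agrimol B. In each of these 3 genes the Agrimol B libraries lay close together. MYCT1, a nuclear protein named as a target of MYC, was at 0.189, 0.281 and 0.377 FPKM in control and 2.62, 2.86 and 2.61 FPKM with Agrimol B, a ratio of 9.55. HIST1H2BN, a histone H2B gene, was at 0.429, 0.898 and 0.459 FPKM in control and 3.38, 2.64 and 3.07 FPKM with Agrimol B. Histone genes are near-identical and most of their transcripts lack a poly(A) tail, so this value is uncertain.

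Among the remaining factors, SOX21 and NEUROG2, which act in neural progenitors, had means of 2.35 ± 0.252 and 2.25 ± 0.152 FPKM with Agrimol B (0.576 ± 0.0510 and 0.740 ± 0.0981 FPKM in control). PAX2, a factor of kidney and eye development, was at 0.269 ± 0.0237 FPKM in control and 1.31 ± 0.0345 FPKM with Agrimol B. LHX8, of forebrain cholinergic neurons and oocytes, stood at 0.233 ± 0.0835 and 1.49 ± 0.286 FPKM, and the blood cell repressor GFI1 at 0.413 ± 0.103 and 1.64 ± 0.320 FPKM. The zinc finger genes ZNF165 and ZFP3 were at 2.41 ± 0.234 and 1.33 ± 0.105 FPKM with Agrimol B. REST, a repressor of neuronal genes that is not a member, was at 5.44, 5.003 and 3.48 FPKM in control and 5.47, 5.43 and 4.92 FPKM with Agrimol B, so that the groups overlapped.

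**Figure D3:**
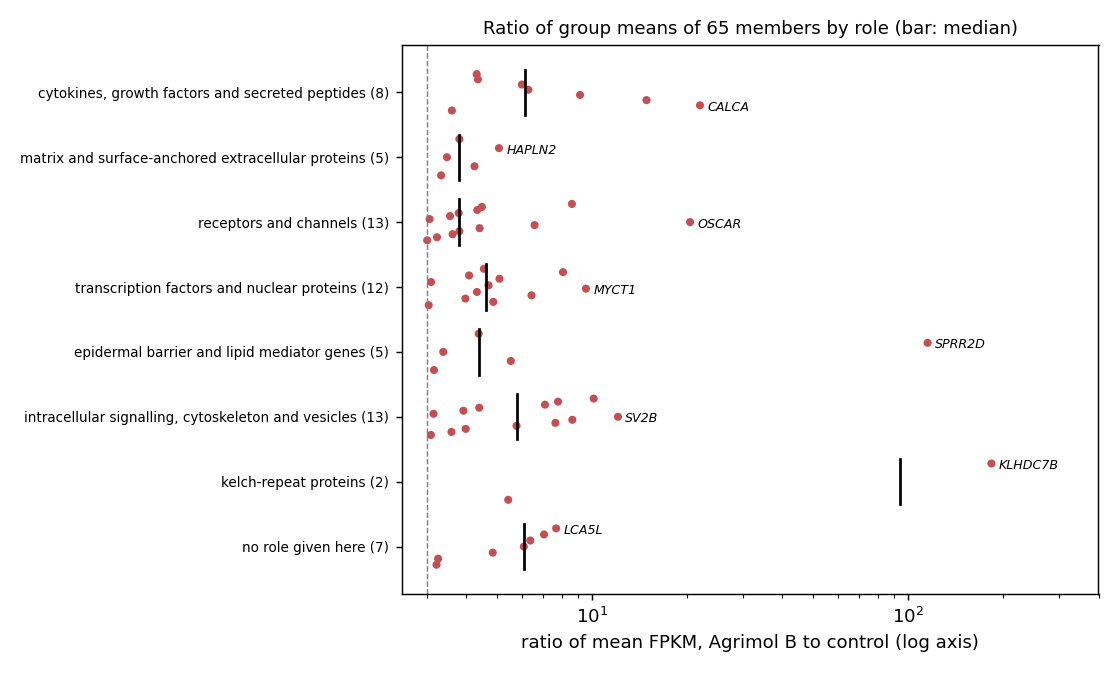
Ratio of the mean FPKM with Agrimol B to that in control (log axis) for each of the 65 members, by the role of the product (number of members in brackets), with the median of each role as a black bar and the limit of 3 as a dashed line. The highest member of each role is named, and most members of every role except the pair of kelch-repeat genes lie under 10.

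Genes of the epidermal barrier and of lipid mediators gave 5 members. SPRR2D (chromosome 1, 153039725 to 153041931, minus strand), a precursor of the cornified envelope that seals keratinocytes, was at 0.184, 0 and 0.291 FPKM in control and 16.01, 19.6 and 19.0 FPKM with Agrimol B. It had the highest level of all members, and all 3 Agrimol B libraries held it alike. SPRR2A, its close relative next to it on the chromosome, was at 0.150, 0.379 and 2.75 FPKM with Agrimol B, highest in the third library. Whether the keratinocyte genes of that library bear on SPRR2D was not tested. The SPRR2D ratio of 115 rests on control values near 0. It became 198 without the third control library and 76.8 without the second. SPRR2 genes are near-identical, so how the reads were shared between them is uncertain.

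ALOX12B and ALOXE3, lipoxygenases that act one after the other to build the lipid barrier of skin, lie 8.18 kb apart on chromosome 17 and were both members. ALOX12B was at 0.453, 0.585 and 0.348 FPKM in control and 2.52, 1.83 and 1.71 FPKM with Agrimol B. ALOXE3 was at 0.161, 0.297 and 0.332 FPKM in control and 1.398, 1.15 and 1.82 FPKM with Agrimol B. The ratios were 4.37 and 5.53, and the third Agrimol B library was the lowest for ALOX12B and the highest for ALOXE3. PTGS2, the inducible cyclooxygenase that starts prostaglandin synthesis, was near the limit at 1.03, 1.23 and 1.41 FPKM with Agrimol B (0.362 ± 0.0553 FPKM in control). DGKK, a diacylglycerol kinase, had the lowest mean with Agrimol B, 1.09 ± 0.00757 FPKM, against 0.344 ± 0.0223 FPKM in control.

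The kelch-repeat proteins KLHDC7B and KLHL35 made a pair of very different size. KLHDC7B (chromosome 22, 50545891 to 50551023, plus strand) was at 0.0712, 0.102 and 0.0164 FPKM in control and 11.8, 12.3 and 10.7 FPKM with Agrimol B, the largest ratio of all members. Its neighbours did not share that ratio. ODF3B was at 0.198, 0.380 and 0.477 FPKM in control and 0.867, 2.01 and 1.90 FPKM with Agrimol B. With its ratio of 4.53, ODF3B met the rule when the first Agrimol B library was left out. CPT1B, on the other side, was at 4.85 and 4.78 FPKM on average. KLHL35 was at 0.767, 0.644 and 0.621 FPKM in control and 3.17, 3.88 and 3.97 FPKM with Agrimol B. KLHDC7A, the closest relative of KLHDC7B by name, was at 0.105 and 0.0424 FPKM on average.

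Vesicle, cytoskeleton and signalling proteins gave 13 members, with a median ratio of 5.76. LAMP3, a lysosomal membrane glycoprotein first known from maturing dendritic cells, was at 0.879, 0.789 and 0.835 FPKM in control and 7.54, 8.66 and 9.09 FPKM with Agrimol B. The ratio of 10.1 contrasts with the other lysosomal membrane proteins LAMP1 (109 ± 15.3 and 112 ± 16.9 FPKM) and LAMP2 (45.7 ± 0.896 and 48.1 ± 3.13 FPKM), whose groups overlapped. CORO2B, an actin-binding coronin, was at 0.787, 0.741 and 0.725 FPKM in control and 4.26, 4.25 and 4.46 FPKM with Agrimol B. VEPH1, a membrane-binding protein with a pleckstrin homology domain, was at 0.481, 0.807 and 0.367 FPKM in control and 3.76, 4.84 and 4.30 FPKM with Agrimol B. SV2B, a glycoprotein of synaptic vesicles, was at 0.0518, 0.164 and 0.110 FPKM in control and 1.12, 1.29 and 1.52 FPKM with Agrimol B. Its ratio of 12.1 was the sixth largest, although its level stayed close to the limit.

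BEX4, a small microtubule-associated protein, was at 0.0798, 0.331 and 0 FPKM in control and 1.39, 1.13 and 1.04 FPKM with Agrimol B. Its ratio of 8.65 became 29.7 without the second control library, which alone held most of the control signal. Without the third control library the ratio fell to 5.76. PLEKHG1 and ARHGAP25 had Agrimol B means of 1.53 ± 0.153 and 1.28 ± 0.122 FPKM, the kinesin KIF26B one of 1.58 ± 0.0505 FPKM and the endocytosis protein REPS2 1.17 ± 0.0934 FPKM. CDK5R2, an activator of the neuronal kinase CDK5, was at 0.376 ± 0.151 FPKM in control and 1.47 ± 0.141 FPKM with Agrimol B. RUBCNL, which promotes autophagosome maturation, was at 2.01 ± 0.385 FPKM, the interferon-inducible OASL at 2.24 ± 0.127 FPKM and the doublecortin-domain gene DCDC2C at 1.30 ± 0.315 FPKM with Agrimol B.

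For 7 members no role is given. TUNAR, a transcript of embryonic stem cells and neural tissue, was at 0.903, 0.839 and 0.957 FPKM in control and 5.09, 5.52 and 5.77 FPKM with Agrimol B. AC118754.1, annotated as an antisense transcript and the only member (of 65) not annotated as protein-coding, was at 0.288, 0.466 and 0.379 FPKM in control and 2.55, 2.56 and 2.87 FPKM with Agrimol B. The rest (CCDC188, C16orf71, TTC9B, TMEM71 and LCA5L) stood between 1.30 and 2.38 FPKM with Agrimol B. The ratio of C16orf71 moved from 6.37 to 10.9 without the second control library and to 4.83 without the first. That of LCA5L moved from 7.69 to 13.3 without the first control library and to 5.66 without the third.

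The receptors and partners of the members give the setting in which they appeared. They were chosen after the members were known, and their values are given without a test. Of the 2 subunits of the TSLP receptor, IL7R was at 24.3 ± 1.36 FPKM in control and 16.4 ± 1.24 FPKM with Agrimol B, while CRLF2 was at 0.224 ± 0.0725 and 0.291 ± 0.0552 FPKM. IL20RB pairs with IL20RA or IL22RA1 to bind IL24, and both were under 1 FPKM in every library and lower with Agrimol B (0.0609 ± 0.0304 against 0.264 ± 0.104 FPKM, and 0.0531 ± 0.0250 against 0.147 ± 0.0434 FPKM). Of the receptor for LIF, LIFR was lower (7.76 ± 0.254 against 12.2 ± 1.07 FPKM) and IL6ST higher (23.8 ± 1.10 against 15.1 ± 0.470 FPKM) with Agrimol B. EGFR, which binds AREG and TGFA, was at 25.6 ± 3.31 FPKM in control and 26.9 ± 4.15 FPKM with Agrimol B, and its groups overlapped. For the CALCA and CALCB peptides, the receptor CALCRL was near 0 in both groups (0.0680 ± 0.0358 and 0.0669 ± 0.0379 FPKM), and its partner RAMP1 was at 11.1 ± 0.206 and 5.99 ± 1.23 FPKM.

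Partners and relatives of members went both ways with Agrimol B, and lower ones are given first. PTGES, which makes prostaglandin E2 from the product of PTGS2, was at 23.8, 24.4 and 22.7 FPKM in control and 5.97, 5.37 and 5.86 FPKM with Agrimol B. TEK, the kinase that pairs with TIE1, was at 3.10 ± 0.164 and 0.805 ± 0.189 FPKM. CDK5 and the other activator CDK5R1 were at 8.82 ± 0.392 and 1.03 ± 0.0261 FPKM in control and at 4.06 ± 0.521 and 0.698 ± 0.0767 FPKM with Agrimol B. The thrombin receptor F2R, a relative of F2RL3, was at 17.7 ± 1.25 and 6.49 ± 0.309 FPKM, and F2RL1 at 6.28 ± 0.290 and 2.66 ± 0.282 FPKM. In each of these genes all control values lay above all Agrimol B values. The share of all genes with such a gap was not computed, and 21.4% of all genes tested were lower in the test given below. The reelin receptor LRP8 (17.9 ± 0.290 and 17.6 ± 0.324 FPKM) and the netrin NTN1 (5.73 ± 0.194 and 5.86 ± 0.0879 FPKM) overlapped between groups. The second reelin receptor, VLDLR, was higher, at 4.15 ± 0.852 FPKM in control and 10.5 ± 2.46 FPKM with Agrimol B. Higher too were IL6ST, ROBO3 and ADM2, a relative of CALCB (2.31 ± 0.574 and 10.6 ± 2.47 FPKM). Its other relative read here, ADM, was lower (22.4 ± 6.30 and 14.1 ± 1.69 FPKM).

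**Figure D4:**
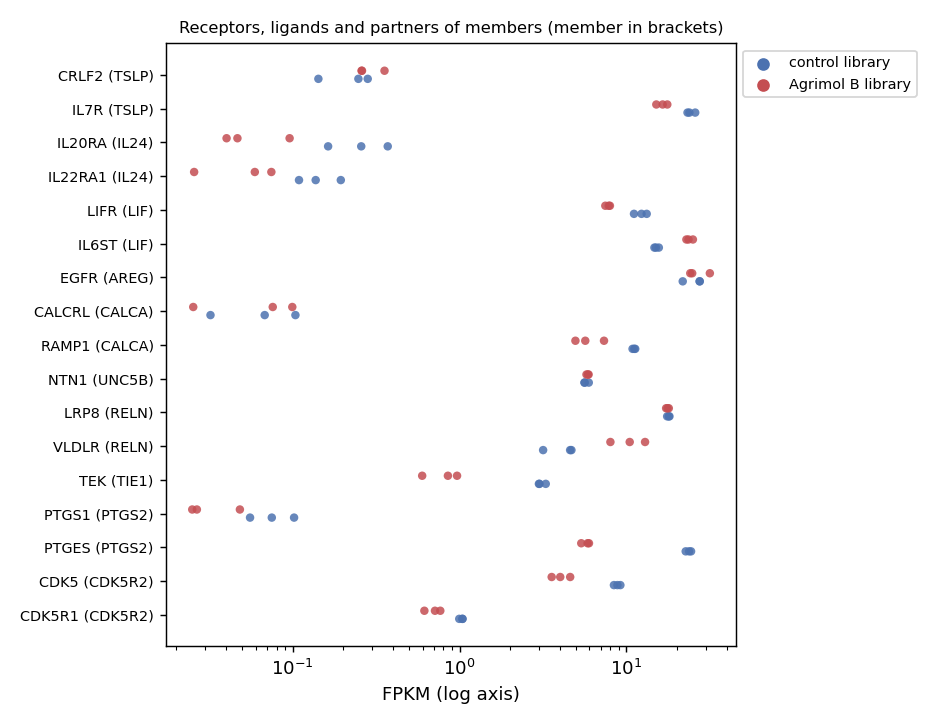
FPKM (log axis) of 17 receptors, ligands and partner proteins of members in each control (blue) and Agrimol B (red) library, with the member each belongs to in brackets. PTGES, TEK, CDK5 and IL7R are lower in all 3 Agrimol B libraries, IL6ST and VLDLR are higher, and EGFR, LRP8 and NTN1 overlap.

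To place the members among genes of like function, other genes of 10 lists were read from a test across the whole table (limma on log2(FPKM + 1), Benjamini-Hochberg adjusted p 0.05). Of all genes tested, 30.6% were higher and 21.4% lower with Agrimol B (52% in either direction), with a median log2 difference of 0.07. Of the 65 members, 44 entered this test and 44 were higher. They entered through the group that the rule made high, so nothing is read from that number.

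Of 41 tested genes on the list for ATF4 and integrated stress, 36 were higher and 0 lower (median log2 difference 1.06). The list held 0 members, but it was drawn up with earlier results of these data known. Whether members outside the list belong to this response was not tested. INHBE, a growth factor subunit of this list, missed the rule only through control values just over the limit (1.08, 1.05 and 1.09 FPKM). In the Agrimol B libraries it reached 8.52, 8.78 and 10.8 FPKM. The list of NF-kB targets, cytokines and chemokines held 5 members (TSLP, IL24, LIF, CXCL3 and PTGS2). Of its 21 other tested genes, 14 were higher and 5 lower (median 0.55), and these include IL6 and CXCL2, which met the thresholds of the rule. Without the first or the second control library 3 were lower. A further 18 were too low to be tested, among them IL1A (0.0462 and 0.548 FPKM) and IL23A (0.146 and 0.922 FPKM), which stayed under 1 FPKM on average.

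The immediate early list held EGR1, and of its 19 other tested genes 10 were higher and 1 lower (median 0.52), with ARC, a neuronal early gene, 2.96-fold higher (limma adjusted p = 4.38e-05). The list of EGF receptor ligands and ERK feedback genes held AREG and TGFA, and of 18 others 11 were higher and 1 lower (median 0.45). That gene was EGF itself, at 4.50 ± 1.26 FPKM in control and 0.939 ± 0.317 FPKM with Agrimol B (log2 difference -1.49, limma adjusted p = 0.00173). With the first control library left out, 2 genes of that list were lower, and with the third Agrimol B library left out, 2 of the immediate early list. The interferon-stimulated list held OASL, and of 27 others 14 were higher and 2 lower (median 0.31; 4 lower under median-ratio scaling or quantile normalization). The lower ones were the guanylate-binding proteins GBP1 (16.8 ± 0.566 and 4.22 ± 0.578 FPKM, limma adjusted p = 4.76e-05) and GBP2 (3.52 ± 0.232 and 0.780 ± 0.0569 FPKM, limma adjusted p = 4.82e-05).

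Of 27 other kelch-repeat genes 10 were higher and 4 lower (median 0.15), with KLHL29 at 7.24 ± 0.229 and 14.6 ± 0.355 FPKM (limma adjusted p = 5.41e-05). Of the other cornified envelope genes and keratins only 8 were tested, 2 higher and 1 lower (median 0.62), and KRT5, KRT6A, KRT14 and KRT17, highest in the third Agrimol B library, were among the 5 that did not pass. Without that library only 4 genes of the list were tested, 2 higher and 2 lower. Of 17 neuroendocrine and synaptic secretion genes 6 were higher and 5 lower (median 0.14), with the granin CHGB at 2.28 ± 0.0804 and 6.72 ± 0.360 FPKM (limma adjusted p = 4.55e-05). The number lower was 2 without the first or the second control library (5 and 8 higher) and 3 without the third control, the first Agrimol B or the second Agrimol B library. Of 25 p53 targets and cell cycle inhibitors 9 were higher and 5 lower (median 0.02), and of 16 matrix metalloproteinases and protease inhibitors 6 were higher and 4 lower (median 0.02). Without the second control library 7 of the p53 list were higher and 3 lower. The synaptic, p53 and protease lists held 0 members.

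**Figure D5:**
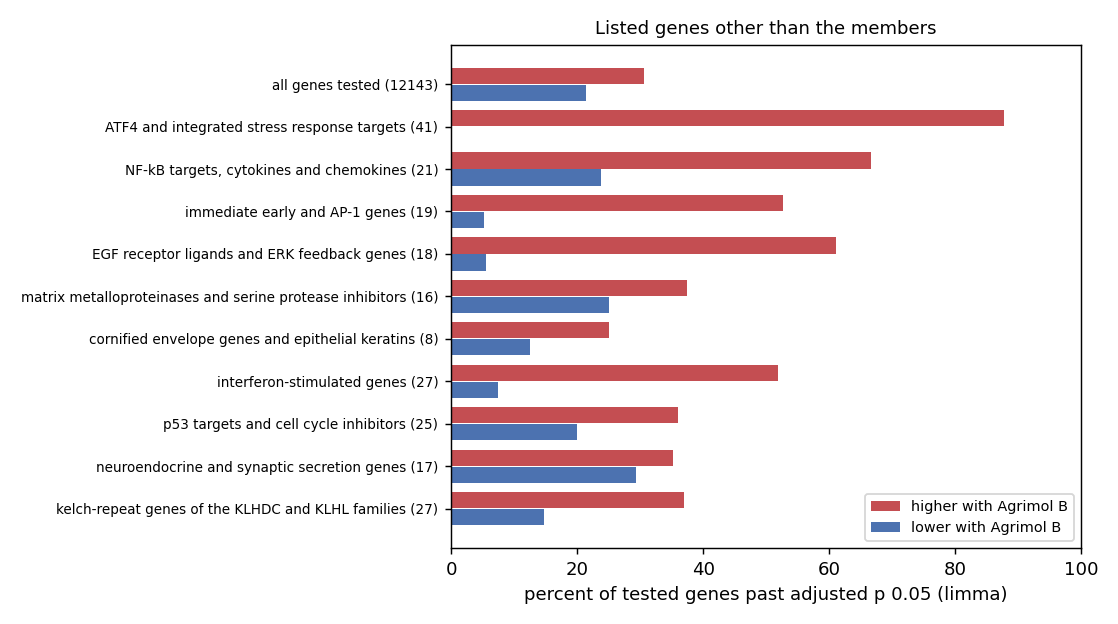
Percent of tested genes that were higher (red) or lower (blue) with Agrimol B by limma at adjusted p 0.05, for 10 lists without the members and for all genes tested (number tested in brackets). The ATF4 list has 36 of 41 higher and 0 lower, while the p53, synaptic and kelch-repeat lists lie near the 30.6% of all genes.

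On the genome the members were scattered, with 9 on chromosome 1, 5 each on chromosomes 2, 6 and 17, and fewer on each of the others. In 5 pairs they lay within 1 Mb of each other. CALCA lies inside the annotated span of CALCB, on the other strand. ALOX12B and ALOXE3 were 8.18 kb apart, HIST1H2BN and ZNF165 215 kb, CXCL3 and AREG 406 kb, and AC118754.1 and ZFP3 579 kb. Of 127 genes next to a member and not members themselves, 86 were high enough to be tested. Of these 86, 33 were higher (38.4%, against 30.6% of all genes) and 15 lower (17.4%, against 21.4%). The 33 include CXCL2 beside CXCL3, which met the thresholds of the rule and was left out by name. No test was made of these shares. ALOXE3 has HES7 next to it, which was at 0.884, 0.736 and 0.930 FPKM in control and 1.52, 1.78 and 1.98 FPKM with Agrimol B, while RPS3 beside KLHL35 was at 405 and 247 FPKM on average.

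Some members share exon sequence with another annotated gene, which matters because the labels do not say whether the authors counted by strand. Exons of 18 members overlapped a gene on the opposite strand and those of 5 a gene on their own strand. Reads from such shared bases cannot be assigned to a gene by position alone. C16orf71 shares 1154 bases with ZNF500 (3.86 and 4.57 FPKM on average) and 107 with ANKS3 (7.62 and 11.8 FPKM), and LCA5L shares 990 bases with WRB (11.99 and 10.8 FPKM). ALOX12B shares 736 bases with AC129492.1 (5.12 and 7.66 FPKM), DLK2 79 with ABCC10 (6.13 and 8.45 FPKM), VEPH1 71 with PTX3 (11.99 and 13.9 FPKM) and IL20RB 66 with NCK1 (6.65 and 8.62 FPKM). Of these 7 neighbours, ANKS3 and AC129492.1 differed most between groups. Their part in the members' values was not tested.

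Near the limits the choice of members was narrow. The control values closest under 1 FPKM were those of DLK2, TUNAR and HIST1H2BN (0.991, 0.957 and 0.898 FPKM at the highest), and GPR1, FIBIN and INHBE lay just outside (1.02, 1.08 and 1.09 FPKM). The lowest Agrimol B values inside were 1.02, 1.03 and 1.04 FPKM for DCDC2C, PTGS2 and BEX4, and MATN1, FOXQ1 and B3GALT5 were just outside (0.984, 0.970 and 0.969 FPKM). The smallest ratios inside were 3.00, 3.04 and 3.06 for UNC5D, NEUROG2 and PTPRO, and C2orf81, DNER and ZNF616 followed outside (2.99, 2.97 and 2.92).

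The rule was also read with 1 library kept out of the choice at a time. This is a description and no test, since libraries of 1 group may be only technical repeats. When each library was left out and the rule applied to the other 5, 64 to 73 genes met it. In the left-out library 92.6% to 98.5% of these genes were on their side of 1 FPKM. For the 3 Agrimol B libraries this was 65 of 70, 68 of 73 and 65 of 69 genes, and 69 of 70, 72 of 73 and 69 of 69 stood above all 3 control values. The rule had already placed those control values under 1 FPKM, and the same shares over all genes were not computed. For the 3 control libraries 63 of 64, 63 of 68 and 65 of 66 genes were on their side of 1 FPKM. The highest control value on the wrong side was that of 1 gene chosen without the second control library, which stood at 12.1 FPKM in it.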

How the data were processed

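The authors deposited 1 table of FPKM values for 6 libraries prepared, per the labels' protocols, using a KAPA stranded kit for mRNA. Per the submitters' processing notes, FastQC, cutadapt, Trimmomatic, HISAT and the build hg38 were used. The program behind the FPKM values, and its annotation and filters, are not named in the labels or notes. Control columns carry the letters of their labels in the other order and were matched on the shared number. Coordinates are from GENCODE release 29 (hg38), matched for all 65 members.

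The members, gene lists, roles, partners and motifs were chosen with earlier results of these data known. Of the members, 44 passed the filter of a mean of at least 1 FPKM and 21 did not. Other genes were tested on log2(FPKM + 1) with limma 3.58.1 in R 4.3.3 (group term, variance trend, two-sided, Benjamini-Hochberg), which was tested on simulated data. A fold is a ratio of group means of FPKM. Values in every library are given for the 20 members with the highest level and the 10 with the largest ratio, and for others where a result turns on them. Listed genes named were among the 3 with the largest difference, apart from some named after their values were seen. These were IL1A, IL23A, INHBE, CD68, CD14, CORO1A, KRT5, KRT6A, KRT14, KRT17, SPRR1B and SPRR2A. Python 3.11.15 with pandas 2.3.3 was used for the rest. Alternatives changed the limits, scaling, pseudocount, filter, block and libraries.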

Additional observations from a re-analysis of the deposited data

How the results depend on the processing

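The number of genes meeting the rule depended most on the smallest ratio allowed: 123 genes with 2 in place of 3 and 28 with 5. With a limit of 0.5 FPKM 54 genes met the rule and with 2 FPKM 50, of which 26 and 28 were among the 65. Median-ratio scaling left 58 and quantile normalization 55, all among the 65. DCDC2C, DLK2, NEUROG2, PTPRO, REPS2, UNC5D and ZNF165 no longer met the rule under either. BEX4, DGKK and OASL no longer met it under quantile normalization alone. Leaving out 1 library gave 64 to 73 genes, with 58 to 64 of the 65. Over all genes tested, the counts of 3713 higher and 2598 lower stayed within 1.5 times (higher 2788 to 3959, lower 1947 to 3150 over the alternatives). Median-ratio scaling and quantile normalization moved the split to 3084 higher and 3150 lower and to 3099 and 3087. With the replicate number as a block they were 3392 and 2384, and same-numbered libraries did not deviate together (correlations 0.0373, -0.00575 and -0.0146). The 30 genes with the largest differences within their list (3 for each of 10 lists) kept direction and call under every alternative that tested them. The number of reads is unknown, which limits what a control value near 0 can show.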
